A study of Canis lupus familiaris with 5 samples.

Results

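The endothelium of a vein graft 24 h after bypass was described from single nuclei of canine cephalic vein. A nucleus of the grafted library counted as endothelial when 5 endothelial genes (PTPRB, PECAM1, CDH5, VWF and MMRN2) together held at least 3 unique molecular identifiers (UMIs, one per captured transcript molecule). That sum also had to exceed each of 4 other sums, over fibroblast genes (DCN, LAMA2, COL1A2, COL6A3), lymphatic genes (PROX1, MMRN1, FLT4, RELN), myeloid genes (AQP9, PLXNC1, SLC11A1) and capillary-like genes (NR5A2, BTNL9, NOSTRIN). ACKR1, a chemokine receptor of venular endothelium, had to stay under 2 UMIs. By this rule 646 of the 2705 grafted nuclei with at least 100 detected features were endothelial (23.9%, exact binomial 95% interval 22.3% to 25.5%), out of 6868 such nuclei in the 5 libraries of the series.

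The grafted library came from cephalic vein of dog 1, taken 24 h after the vein had been harvested, distended and sewn in as a carotid bypass (n = 1). Distended vein came from dogs 1 and 2 (n = 2) at the end of harvest, which lasted approximately 30 minutes in all and included injection of saline with papaverine hydrochloride and bivalirudin against an occluded outflow. Undistended control vein came from the same 2 dogs (n = 2). All were mongrel dogs of 25 kg, of ages not given in the sources used here, under pentothal and isoflurane anaesthesia, and bivalirudin was infused before the anastomoses were made. The grafted vein had therefore also been distended, and time after harvest, arterial flow, surgery and the single animal cannot be told apart within the grafted group. Dog 1 and dog 2 name the same animals in each group. Nuclei of 1 library are not replicates, so comparisons between groups were made on counts summed over the endothelial nuclei of each library.

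Endothelial cells line the vessel lumen and set its barrier, its tone, its contact with leukocytes and its tendency to clot. In a vein moved into the arterial circulation they meet higher pressure, stretch and shear, and vein graft endothelium is known for injury, inflammatory activation and regrowth in the days after surgery. Endothelial cells that leave quiescence switch on growth and matrix-remodelling genes, among them the vessel-destabilising ligand angiopoietin 2, while laminar flow is known to sustain the transcription factors KLF2 and KLF4.

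The endothelial genes of the rule chose the nuclei, and their values are given as a description with no test. PECAM1, a junction and leukocyte-passage adhesion molecule, had a UMI in 88.9% of the 646 nuclei, against 7.26% of grafted fibroblast nuclei and 38.5% of grafted myeloid nuclei. PTPRB, the vascular endothelial receptor tyrosine phosphatase, was detected in 79.3% of the endothelial nuclei, 6.32% of the fibroblast nuclei and 17.6% of the myeloid nuclei. VWF (von Willebrand factor), CDH5 (VE-cadherin) and MMRN2 (multimerin 2) were detected in 70.0%, 44.7% and 11.1% of the endothelial nuclei. The nuclei compared here had median depths of 3692.5 UMIs (endothelial), 2388 (fibroblast) and 1717.5 (myeloid). At least 2 of the 5 genes were detected in all but 20 of the 646 nuclei. Of 36 tested core endothelial genes that the rule did not use, 2 of the most abundant are given as a description within the grafted library. EMCN, a surface sialoglycoprotein, had a UMI in 85.0% of the endothelial, 8.2% of the fibroblast and 26.0% of the myeloid nuclei, and the receptor TEK in 77.1%, 5.85% and 23.1%. The other core genes, among them LDB2, the most abundant over the 5 libraries, are not set against these classes here, so these 2 do not stand for the list. The sum of the 5 genes was exactly 3 UMIs in 73 nuclei just inside the limit, and 69 nuclei with 2 UMIs lay just outside. ACKR1 stood at 1 UMI in 223 of the endothelial nuclei, while 115 nuclei that met the other conditions had exactly 2 ACKR1 UMIs and were left out. In all, the ACKR1 limit alone removed 383 grafted nuclei, 37.2% of those that met the rest of the rule, against 2.47% and 12.3% in distended dogs 1 and 2 and 2.5% and 0% in control dogs 1 and 2. These shares depend on depth, which was highest in the graft, and the removed grafted nuclei had a median of 6376 UMIs. An ACKR1 UMI was also found in 10.1% of the fibroblast and 22.1% of the myeloid nuclei of the graft.

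The same rule found 514 and 64 endothelial nuclei in distended dogs 1 and 2 and 429 and 261 in control dogs 1 and 2. Their share of kept nuclei was 23.9% in the graft, 24.4% and 26.6% in distended veins and 55.5% and 25.1% in control veins, with no test since the share depends on depth. Each nucleus was also thinned to 200 UMIs outside the 4 locus features described below and the features that name no gene. This left out 1, 61, 2, 116 and 292 shallower nuclei of grafted dog 1, distended dogs 1 and 2 and control dogs 1 and 2. The share that met the whole rule, with its minimum lowered to 1 endothelial UMI, became 14.8%, 23.7%, 28.5%, 71.7% and 44.2% in the same order. At the minimum of 3 it was 0.74%, 10.1%, 1.26%, 27.5% and 14.8%. Grafted endothelial nuclei were deeper than the others, with a median of 3692.5 UMIs against 1379 and 1437 in distended and 2243 and 1146 in control veins. A set of 4 unannotated locus features held 2.15% of their UMIs, against 42.2% and 30.7% in distended and 67.1% and 55.5% in control endothelial nuclei. Ribosomal protein transcripts made up 0.675% of the remaining UMIs in the graft, 0.691% and 4.5% in distended dogs 1 and 2, and 1.27% and 0.422% in control dogs 1 and 2, so distended dog 2 stood apart. Levels below are TMM-normalised CPM (counts per 1000000, scaled for depth and composition), and the 5 endothelial genes of the rule summed to 1092 CPM in the graft, 5701 and 1638 CPM in distended and 5727 and 6544 CPM in control endothelium. The rule asks for at least 3 of these UMIs at any depth, so a shallow nucleus enters only with a high level. Median depth outside the 4 locus features and the unnamed features was 3599.5 UMIs in the graft, 724.5 and 810 in distended and 540 and 398 in control endothelial nuclei. These 5 sums are therefore not read as a change in the genes. Over the 10 pairs of libraries 5 cell barcodes were shared, and 1 of the 646 nuclei shared its barcode with a kept nucleus of control dog 1.

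Grafted against control endothelium asked what had changed in the lining 24 h after bypass. Transcripts of the angiopoietin ANGPT2, of the G protein signalling regulators RGS4 and RGS2, of 11 of 48 cell cycle genes, of the neutrophil factors CSF3 and CXCL8 and of matrix genes such as COL15A1 and ADAMTS9 rose. Those of the forkhead factor FOXC1, the caveolar protein CAVIN2, the scaffold AHNAK, the sodium channel SCN1A and several immediate early genes fell, the early genes with 1 control dog far above the other. In all, 378 of 10570 tested genes (3.58%) passed an adjusted p of 0.05 in edgeR's quasi-likelihood test, of which 205 rose (1.94%) and 173 fell (1.64%), with 1547 genes at an unadjusted p under 0.05. The spread came from the 2 control and 2 distended libraries, and the lone graft was assumed to vary like them. DESeq2 called 76 genes (0.719%). The number of calls fell to 58 and 77 without control dog 1 or 2, to 0 without distended dog 1 (1388 genes at an unadjusted p under 0.05) and to 0 when the nuclei removed by the ACKR1 limit were put back (918 genes), and rose to 806 without distended dog 2. Of the 205 genes that rose, 187 lay above all 4 other sums in the graft, 71 had 0 counts in both controls, and 107 have a symbol and not a bare locus number. Of the 173 that fell, 97 lay below all 4 other sums and 149 have a symbol. Over all tested genes the grafted level lay above all 4 others for 28.2% and below them for 16%. The calls were made with the same libraries, which favours such positions, so these counts are a description. The share with 0 counts in both controls was not taken over all tested genes. Zero counts are also more likely in the controls, whose sums held 1172292 and 339901 UMIs against 2760628 in the graft.

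The 15 genes with the highest fold change included PHLDA1, BCAT1, ANGPT2, RGS4, ARG2, BRIP1, LTK, INSYN2A, KCNQ1, ST3GAL6, SLC18A2, KCNAB1, SFR1 and DSN1, and each of the 15 had 0 counts in both controls. PHLDA1, a pleckstrin-homology protein induced by growth and stress signals, had 197 CPM in the graft, 9.51 and 8.86 CPM in distended and 0 in both control libraries. It was at least 51.3-fold higher than in control endothelium (edgeR adjusted p = 4.06e-07, DESeq2 adjusted p = 0.00097). BCAT1, a branched-chain amino acid transaminase, had 154 CPM in the graft, 5.94 and 57.6 CPM in distended and 0 in control endothelium, at least 39.9-fold higher than control (edgeR adjusted p = 1.05e-06). ANGPT2, the angiopoietin stored in endothelial granules that antagonises the receptor TEK, had 102 CPM in the graft, 27.3 and 13.3 CPM in distended and 0 in control libraries. Its fold over control was at least 26.4 (edgeR adjusted p = 2.16e-05). The choice of genes required the graft to be above each of the other libraries. For these 3 genes both distended sums lay between the graft and the controls.

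RGS4, which shortens signalling by G protein-coupled receptors, had 84.9 CPM in the graft and 0 counts in all 4 other libraries, at least 22.1-fold above control (edgeR adjusted p = 9.9e-05) and at least 30.2-fold above distended endothelium (edgeR adjusted p = 9.53e-05). INSYN2A, a protein described at inhibitory synapses, and SLC18A2, a vesicular monoamine transporter, likewise had 55.3 and 35.6 CPM in the graft and 0 counts elsewhere. ARG2, the mitochondrial arginase, had 60.3 CPM in the graft and 1.19 and 17.7 CPM in distended endothelium, and BRIP1, a helicase that partners BRCA1 in DNA repair, had 57.8 CPM in the graft and 9.51 and 31.0 CPM in distended endothelium. A further 6 genes (LTK, a receptor tyrosine kinase, the potassium channel subunits KCNQ1 and KCNAB1, the sialyltransferase ST3GAL6, the recombination factor SFR1 and the kinetochore protein DSN1) lay between 26.8 and 56.9 CPM in the graft. The limits against control rest on a floor of 3 counts over the 2 controls, and they shrink to 0.271 and 0.729 times their size with control dog 1 or 2 left out. The limit of RGS4 against distended endothelium rests on the same floor over the 2 distended libraries and shrinks to 0.212 and 0.788 times its size with distended dog 1 or 2 left out. In the fit blocked by dog, 12 of these 15 genes were still called (SLC18A2, SFR1 and DSN1 lost it, at adjusted p = 0.135, 0.132 and 0.0682), and DESeq2 called 4. Without control dog 1, control dog 2, distended dog 1 or distended dog 2, edgeR called 2, 8, 0 and 15 of them. It called 0 with the nuclei removed by the ACKR1 limit put back, and 5 of the 12 that could be tested with the grafted sum thinned to the mean depth of the others.

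**Figure D1:**
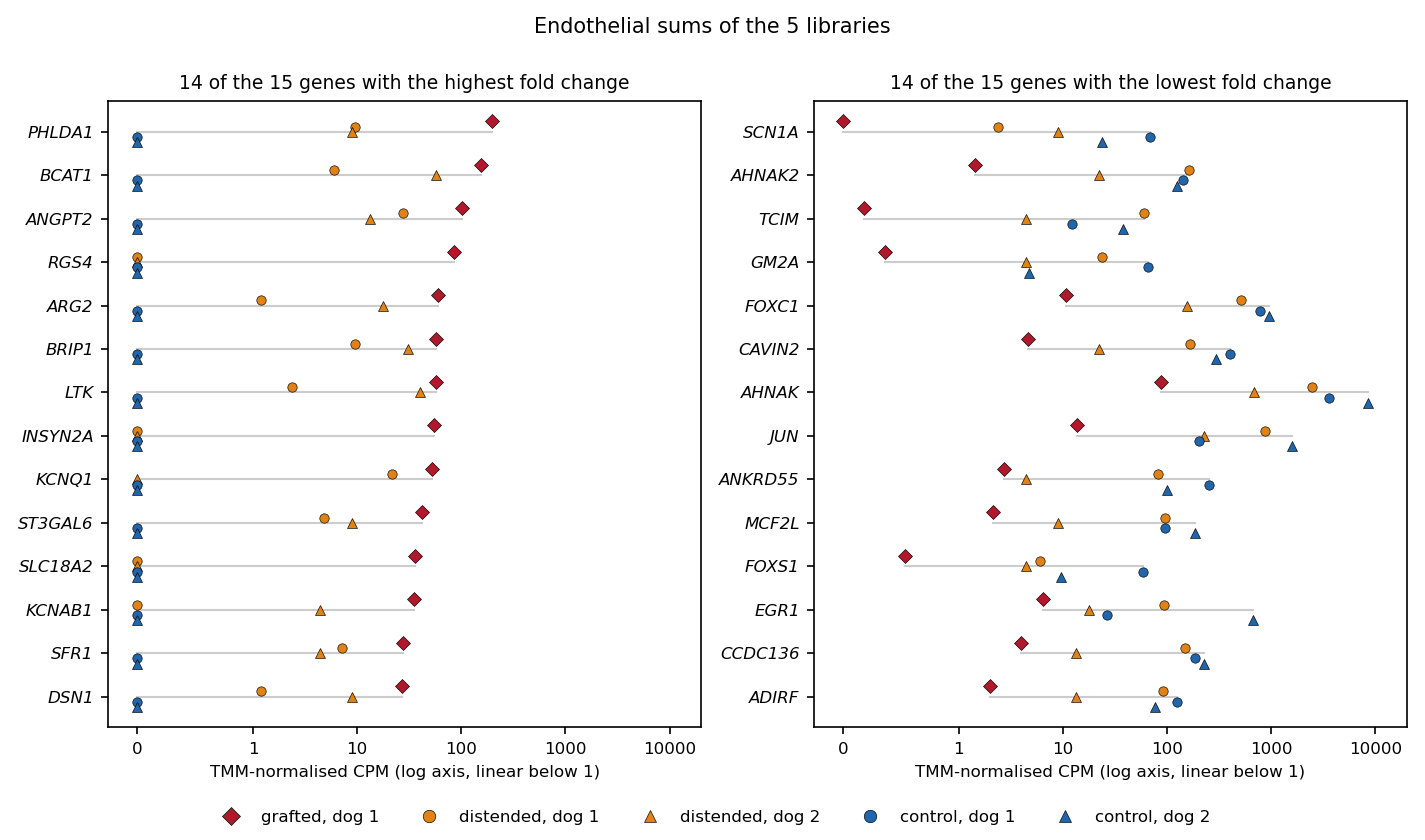
TMM-normalised CPM (horizontal log axis, linear below 1) of 28 of the 30 named genes in the endothelial sums of the grafted, distended and control libraries, 1 symbol per library. The 30 have the highest or lowest fold change among called genes whose grafted level lay outside all 4 other sums. By the choice of genes the grafted sum (diamond) lies above the 4 others in the left panel, where both controls are at 0, and below them in the right panel.

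The 15 genes with the lowest fold change included SCN1A, AHNAK2, TCIM, GM2A, FOXC1, CAVIN2, AHNAK, JUN, ANKRD55, MCF2L, FOXS1, EGR1, CCDC136 and ADIRF. FOXC1, a forkhead factor of vascular development, fell to 10.7 CPM in the graft, against 515 and 155 CPM in distended and 776 and 954 CPM in control endothelium. The log2 fold change against control was -6.32 (SE 1.38, edgeR adjusted p = 0.00075, DESeq2 adjusted p = 1.1e-09). CAVIN2, a coat protein of caveolae, fell to 4.65 CPM, against 165 and 22.1 CPM in distended and 398 and 293 CPM in control endothelium (log2 fold change -6.19, SE 1.25, edgeR adjusted p = 0.000244). AHNAK2 and AHNAK encode giant scaffold proteins under the plasma membrane. AHNAK2 had 1.43 CPM in the graft, 160 and 22.1 CPM in distended and 143 and 123 CPM in control endothelium (log2 fold change against control -6.46, SE 1.21, edgeR adjusted p = 5.09e-05). AHNAK, the most abundant of the 15, had 86.9 CPM in the graft, 2460 and 686 CPM in distended and 3594 and 8501 CPM in control endothelium (log2 fold change -6.12, SE 1.71, edgeR adjusted p = 0.0171, and 0.0616 with the dog as a block).

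SCN1A, a voltage-gated sodium channel, had 0 counts in the graft, 2.38 and 8.86 CPM in distended and 68.6 and 23.6 CPM in control endothelium, at least 105-fold lower than control (edgeR adjusted p = 2.96e-05). MCF2L, a guanine nucleotide exchange factor, had 2.15 CPM in the graft, 95.1 and 8.86 CPM in distended and 95 and 184 CPM in control endothelium, and ADIRF had 1.97 CPM in the graft, 91.5 and 13.3 CPM in distended and 125 and 75.6 CPM in control endothelium. The choice of genes required the graft to be the lowest library for each of them. Distended dog 2 was the next lowest for FOXC1, CAVIN2, AHNAK2, AHNAK, MCF2L and ADIRF. For TCIM, GM2A and FOXS1 the graft held 1 to 3 UMIs. The ratio of control over graft was 136 (exact 95% counting interval 35.2 to 1166) for GM2A, a lysosomal lipid-binding protein. In the fit blocked by dog, 13 of these 15 genes were still called, while EGR1 and AHNAK were not (adjusted p = 0.0782 for EGR1), and DESeq2 called 12. Without control dog 1, control dog 2, distended dog 1 or distended dog 2, edgeR called 10 (of 13 tested), 10, 0 and 15 of them. It called 0 with the nuclei removed by the ACKR1 limit put back and 0 with the grafted sum thinned. The direction of all 30 genes held in every alternative that tested them. Their choice, with a grafted level outside all other sums, largely fixed this direction in advance, so it is a description.

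FSIP1, a fibrous sheath protein first described in sperm, was picked out after its values were seen. It had 539 CPM in the graft, 4.76 and 4.43 CPM in distended and 10.6 and 0 CPM in control endothelium. The pooled ratio of graft over control was 70.1 (exact 95% counting interval 32.2 to 191). The edgeR adjusted p was 1.05e-06 against control and 5.26e-07 against distended endothelium, and DESeq2 gave 4.1e-05 and 1.2e-05. With the dog as a block the edgeR adjusted p was 0.000648 and 0.00308, and it kept its call in 13 of 15 alternatives in each comparison, all but the fit without distended dog 1 and the fit with the ACKR1 nuclei put back.

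Grafted against distended endothelium set the graft against vein that had been stretched but not exposed to arterial flow, at the end of harvest. Fewer genes passed the same threshold: 151 of 10570 (1.43%), of which 93 rose (0.88%) and 58 fell (0.549%), with 939 at an unadjusted p under 0.05 and 9 called by DESeq2 (0.0851%). With the dog as a block 91 genes were called. The count became 0 without distended dog 1 (384 genes at an unadjusted p under 0.05) and 0 without the ACKR1 limit (387 genes), 452 without distended dog 2, and 88 and 75 without control dog 1 or 2. Both comparisons share the graft, so their calls are not independent. Among the 30 genes 15 were called against distended endothelium. Of these, PHLDA1, RGS4, INSYN2A and SLC18A2 rose, and AHNAK2, TCIM, GM2A, FOXC1, CAVIN2, JUN, ANKRD55, MCF2L, CCDC136 and ADIRF fell. Of the genes in the lists below, SELE (which rose) and TMSB4X and CRYAB (which fell) passed against distended and not against control endothelium. TMSB4X, which sequesters actin monomers, had 5.54 CPM in the graft, 113 and 39.9 CPM in distended and 29.9 and 56.7 CPM in control endothelium, the lowest level being that of the graft. CRYAB had 7.33 CPM in the graft, 0 and 195 CPM in distended and 0 CPM in both control libraries, so its call rests on distended dog 2.

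The 2 distended libraries did not stand equally far from the graft. Among the 205 genes that rose against control, distended dog 2 was above both controls for 138 (67.3%) and distended dog 1 for 106 (51.7%), against 35.0% and 32.2% of all tested genes. Among the 173 that fell, distended dog 2 was below both controls for 154 (89.0%) and distended dog 1 for 56 (32.4%), against 35.9% and 21.3% of all tested genes. These shares are a description, since the calls were made with the same libraries. Distended dog 2 had 64 endothelial nuclei and the highest ribosomal protein share, and the part of either in this pattern was not tested.

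Lists of genes by role were then read for how many of their tested members passed the threshold. They were chosen with earlier results of these data known, so their counts are a description. Medians are log2 fold changes of grafted over control endothelium with genes at 0 counts in one group set to their limit, and the median over all tested genes was 0.12. Of all tested genes 1.94% rose and 1.64% fell against control, the shares to set beside each count below. In the cell cycle list 11 of 48 tested genes rose and 0 fell, with a median of 1.92, against a background of 1.94% of all genes that rose. The 11 were the replication helicase subunits MCM3 and MCM4, the initiation factor MCM10, the replication licensing regulator DTL, the activator E2F3, the chromatin factors ATAD2 and HELLS, the repair genes BRCA1 and BRIP1, the condensin subunit SMC2 and the formin DIAPH3. DIAPH3 had 204 CPM in the graft, 17.8 and 53.1 CPM in distended and 10.6 and 0 CPM in control endothelium (log2 fold change against control 4.86, SE 0.93, edgeR adjusted p = 9.47e-05). DTL had 80.8 CPM in the graft, 7.13 and 48.7 CPM in distended and 1.76 and 4.73 CPM in control endothelium (4.87, SE 1.12, edgeR adjusted p = 0.00171). E2F3 had 100 CPM in the graft, 9.51 and 62.0 CPM in distended and 8.80 and 4.73 CPM in control endothelium (3.75, SE 0.94, edgeR adjusted p = 0.00556).

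The graft was above both controls for all 11 genes, which their call against these controls favours. Distended dog 2 was nearer the graft than distended dog 1 was for each of them. BRCA1, with 31.1 CPM in the graft and 5.94 and 48.7 CPM in distended dogs 1 and 2, MCM3 and SMC2 were higher in distended dog 2 than in the graft. Against distended endothelium 0 of the 48 passed the threshold. All 11 kept their call with the dog as a block. DESeq2 kept 1 of them, edgeR without control dog 1 or 2 kept 1 each, and without distended dog 1, or with the ACKR1 nuclei put back, 0 were kept. The list median as fitted, 2.19 here, ran between 1.70 and 4.71 over the alternatives. Summed over 20 replication genes, endothelial nuclei of the graft had 1444 class CPM (UMIs per 1000000 UMIs of the class outside the 4 dominant and the unnamed features, with no TMM scaling), against 228 and 1085 in distended and 188 and 128 in control endothelial nuclei. The 24 mitosis genes summed to 375 class CPM in the graft, 182 and 248 in distended and 134 and 93.5 in control endothelial nuclei.

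Immediate early genes, which are induced within minutes of a stimulus, moved in both directions: 2 of 24 tested genes rose (PHLDA1 and FOSL1) and 8 fell (FOS, FOSB, JUN, JUNB, JUND, EGR1, ATF3 and NR4A1), with a list median of -2.41. JUN had 13.6 CPM in the graft, 864 and 226 CPM in distended and 201 and 1569 CPM in control endothelium (log2 fold change against control -6.01, SE 1.38, edgeR adjusted p = 0.00166). FOS had 10.2 CPM in the graft, 203 and 151 CPM in distended and 8.80 and 860 CPM in control endothelium (-5.38, SE 1.24, edgeR adjusted p = 0.00166, and 0.518 with the dog as a block). EGR1 had 6.44 CPM in the graft, 92.7 and 17.7 CPM in distended and 26.4 and 671 CPM in control endothelium. Control dog 2 was above control dog 1 for all 8 genes that fell, and the graft was below both controls only for JUN, JUND and EGR1. Without control dog 2 edgeR called 0 of the 8 and the median of the list turned to 0.72, and without control dog 1 it called 5 as lower with a median of -3.21. Only JUN and FOSB of the 8 passed in the fit blocked by dog. FOSL1, the Fos-family member of later growth responses, had 60.8 CPM in the graft, 2.38 and 93.0 CPM in distended and 5.28 and 4.73 CPM in control endothelium (3.56, SE 1.02, edgeR adjusted p = 0.022). Against distended endothelium PHLDA1 rose and JUN, FOS, FOSB and JUND fell.

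**Figure D2:**
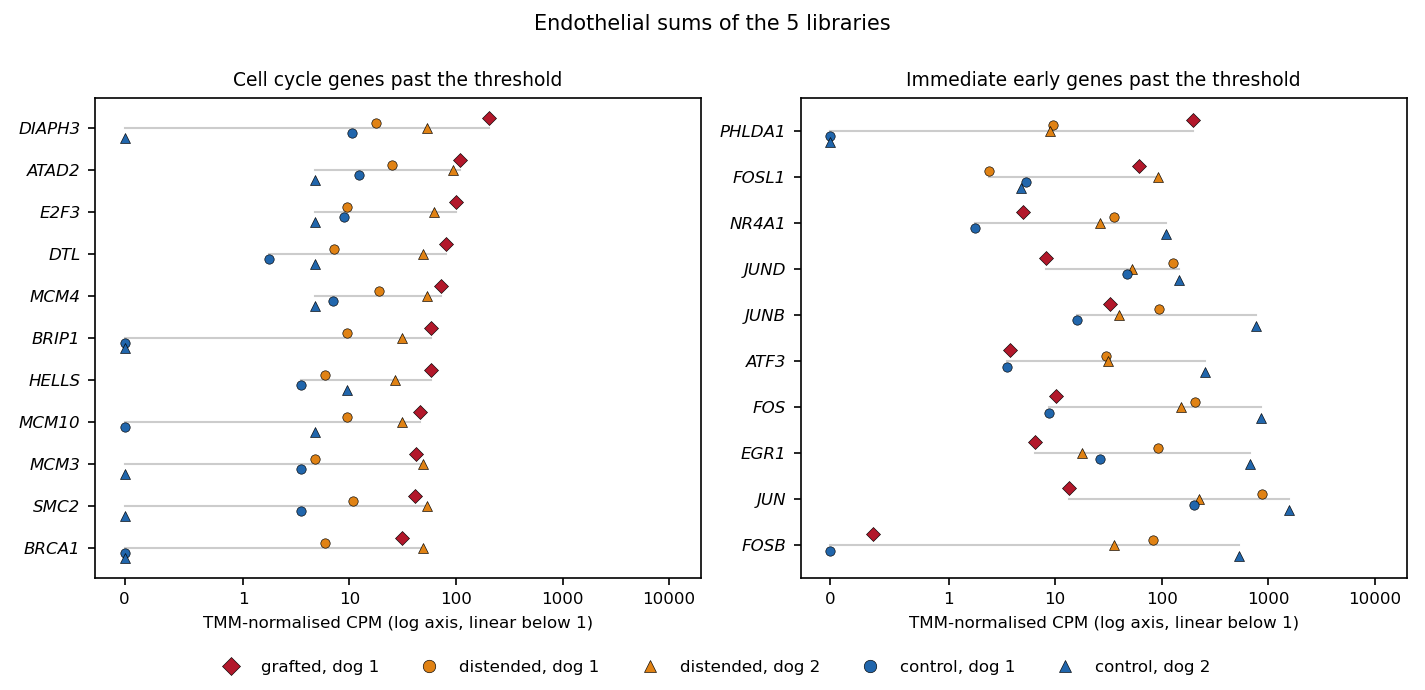
TMM-normalised CPM (horizontal log axis, linear below 1) of the 11 cell cycle genes and the 10 immediate early genes that passed the threshold against control, in the endothelial sums of the 5 libraries. Cell cycle genes are higher in the graft than in both controls, which their call favours. For the immediate early genes that fell control dog 2 lies to the right of control dog 1.

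In the angiogenic list 1 of 20 tested genes passed (ANGPT2, above), with a median of 1.12. COL4A1 and NID2, which build vascular basement membrane, had 272 and 231 CPM in the graft, 164 and 105 CPM in distended dog 1, 120 and 146 CPM in distended dog 2, 63.4 and 29.9 CPM in control dog 1, and 18.9 and 52.0 CPM in control dog 2. Neither passed (edgeR adjusted p = 0.0553 and 0.072). FLT1, a VEGF receptor, had 500 CPM in the graft, 268 and 226 CPM in distended and 239 and 293 CPM in control endothelium (log2 fold change against control 0.91, SE 0.91, edgeR adjusted p = 0.735). TEK, the angiopoietin receptor, had 509 CPM in the graft, 509 and 323 CPM in distended and 759 and 473 CPM in control endothelium, so that its ligand ANGPT2 passed the threshold while the receptor did not. VASH2, a vasohibin described as angiogenic, lies outside the list and was picked out after its values were seen. It had 94.2 CPM in the graft, 3.57 and 53.1 CPM in distended and 1.76 and 0 CPM in control endothelium (edgeR adjusted p = 0.000176, DESeq2 adjusted p = 0.079).

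Of 28 tested genes of the NF-kB and cytokine list 2 rose and 1 fell, with a median of 0.57. CSF3, which encodes the neutrophil growth factor G-CSF, had 320 CPM in the graft, 5.94 and 75.3 CPM in distended and 0 and 18.9 CPM in control endothelium (log2 fold change against control 5.6, SE 1.00, edgeR adjusted p = 2.55e-05, DESeq2 adjusted p = 0.66). CXCL8, the neutrophil chemoattractant, had 86.0 CPM in the graft, 3.57 and 26.6 CPM in distended and 0 and 9.45 CPM in control endothelium (4.83, SE 1.13, edgeR adjusted p = 0.00227). IRF1, an interferon-regulated factor, fell to 7.87 CPM in the graft, against 11.9 and 17.7 CPM in distended and 3.52 and 236 CPM in control endothelium, so the call rests on control dog 2 (edgeR adjusted p = 0.00923, and 0.843 with the dog as a block). Neutrophil and recruited myeloid markers moved with these genes: their 8 genes summed to 107 CPM in the graft with 0 of 8 at 0 counts, 8.32 and 62.0 CPM in distended and 5.28 and 14.2 CPM in control endothelial sums. The part of transcripts from myeloid cells in these results was not tested.

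Of 19 tested leukocyte adhesion genes 1 rose against control (CXCL8, which this list shares) and 1 against distended endothelium (SELE). SELE, the cytokine-induced selectin that captures leukocytes, had 315 CPM in the graft, 57.1 and 17.7 CPM in distended and 5.28 and 425 CPM in control endothelium. It passed against distended endothelium (log2 fold change 2.98, SE 0.88, edgeR adjusted p = 0.0486, DESeq2 adjusted p = 1) and not against control (0.58, SE 0.87, edgeR adjusted p = 0.846). SELP, the stored selectin, had 279 CPM in the graft, 46.4 and 168 CPM in distended and 15.8 and 425 CPM in control endothelium. ICAM1 and VCAM1, ligands of leukocyte integrins, had 149 and 23.6 CPM in the graft, 122 and 2.38 CPM in distended dog 1, 88.6 and 8.86 CPM in distended dog 2, 66.9 and 5.28 CPM in control dog 1 and 1006 and 284 CPM in control dog 2. For all 4 adhesion molecules the graft lay between the 2 control dogs.

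Matrix genes and their proteases gave calls in both directions. Of 33 tested matrix and basement membrane genes 3 rose (COL15A1 and VCAN among them) and 0 fell, with a median of -0.39. COL15A1, a basement membrane collagen, had 150 CPM in the graft, 103 and 48.7 CPM in distended and 1.76 and 9.45 CPM in control endothelium (log2 fold change against control 5.11, SE 1.02, edgeR adjusted p = 0.000182). VCAN, the proteoglycan versican, had 530 CPM in the graft, 59.4 and 359 CPM in distended and 28.2 and 47.3 CPM in control endothelium (3.85, SE 0.93, edgeR adjusted p = 0.00313). Among 22 protease genes ADAMTS9 and ADAM12 rose and ADAMTS18 fell, with a median of 0.80. ADAMTS9, a versican-cleaving protease, had 603 CPM in the graft, 65.4 and 204 CPM in distended and 31.7 and 33.1 CPM in control endothelium (4.22, SE 0.93, edgeR adjusted p = 0.000827, DESeq2 adjusted p = 0.003). ADAMTS18 had 3.22 CPM in the graft, 451 and 0 CPM in distended and 21.1 and 265 CPM in control endothelium, so both other groups differed widely between dogs. Of 15 tested integrin genes ITGA8 alone passed, with 152 CPM in the graft, 5.94 and 0 CPM in distended and 17.6 and 0 CPM in control endothelium. Its log2 fold change was 3.77 against control (SE 0.89, edgeR adjusted p = 0.00243, and 0.136 with the dog as a block) and 5.13 against distended endothelium (SE 0.97, edgeR adjusted p = 0.00016). ITGA8 is also among the 8 smooth muscle markers, whose other members lay between 0 CPM (CNN1) and 21.5 CPM (KCNMA1) in the graft, with the smooth muscle myosin MYH11 at 1.43 and the actin ACTA2 at 0.715 CPM. The part of smooth muscle transcripts in its level was not tested.

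Transcription factors of the endothelial list moved singly: RUNX1, RUNX2 and HMGA2 rose and FOXC1 and HOXD9 fell, of 39 tested (median -0.11). RUNX1, the factor of haemogenic endothelium and blood, had 98.9 CPM in the graft, 1.19 and 4.43 CPM in distended and 3.52 and 9.45 CPM in control endothelium (log2 fold change against control 4.14, SE 1.03, edgeR adjusted p = 0.00476). HMGA2, a chromatin architectural protein of growing cells, had 172 CPM in the graft, 2.38 and 155 CPM in distended and 0 and 9.45 CPM in control endothelium, so distended dog 2 was close to the graft (5.84, SE 1.08, edgeR adjusted p = 4.21e-05, DESeq2 adjusted p = 0.73). NR2F2 (COUP-TFII), the factor that specifies veins, had 29.1 CPM in the graft, 182 and 115 CPM in distended and 378 and 146 CPM in control endothelium, lowest in the graft but short of the threshold (-3.18, SE 1.05, edgeR adjusted p = 0.0618, DESeq2 adjusted p = 0.042). In the venous list 0 of 8 tested genes were called.

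Among 30 tested channel and signalling genes RGS4, RGS2 and PDE4B rose and ATP2A3 and KCNN3 fell, with a median of -0.57. RGS2, another regulator of G protein signalling, had 153 CPM in the graft, 9.51 and 26.6 CPM in distended and 5.28 and 14.2 CPM in control endothelium (log2 fold change against control 4.17, SE 0.94, edgeR adjusted p = 0.00116). ATP2A3, which pumps calcium into internal stores, fell to 0.894 CPM in the graft, against 76.1 and 0 CPM in distended and 102 and 189 CPM in control endothelium (-7.20, SE 1.24, edgeR adjusted p = 1.16e-05, DESeq2 adjusted p = 0.00018). KCNN3, a calcium-activated potassium channel that hyperpolarises endothelium, had 14.8 CPM in the graft, 546 and 13.3 CPM in distended and 229 and 501 CPM in control endothelium (-4.60, SE 1.19, edgeR adjusted p = 0.00782). Distended dog 2 was below the graft for both genes that fell. PDE4B lost its call with the dog as a block (edgeR adjusted p = 0.27).

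Each call among the genes of clotting, flow sensing and barrier was a fall, where 1.64% of all tested genes fell. Of 18 tested clotting genes F8 and PTGS1 fell (median -0.17). F8, coagulation factor VIII, had 15.0 CPM in the graft, 145 and 17.7 CPM in distended and 266 and 151 CPM in control endothelium (log2 fold change against control -3.80, SE 1.05, edgeR adjusted p = 0.0165). PTGS1, the constitutive cyclooxygenase, had 5.19 CPM in the graft, 85.6 and 0 CPM in distended and 211 and 165 CPM in control endothelium (-5.17, SE 1.11, edgeR adjusted p = 0.000634). Of 20 tested flow-responsive genes KLF4 and ASS1 fell (median -0.73). KLF4, a shear-induced factor, had 17.5 CPM in the graft, 514 and 75.3 CPM in distended and 109 and 723 CPM in control endothelium (edgeR adjusted p = 0.00937, and 0.0712 with the dog as a block). KLF2 and NOS3, the other 2 classical shear-responsive genes, had 57.2 and 112 CPM in the graft, within the 54.6 and 156 CPM of KLF2 and the 70.4 and 137 CPM of NOS3 in control dogs 1 and 2. CLDN5, the main claudin of endothelial tight junctions, had 1.61 CPM in the graft, 36.9 and 4.43 CPM in distended and 47.5 and 9.45 CPM in control endothelium (-4.20, SE 1.18, edgeR adjusted p = 0.0189) and was the 1 call among 26 junction genes (median -0.77) and among 36 core endothelial genes outside the rule (median -0.55). In those core genes TEK, EMCN (932 CPM in the graft, 403 and 460 CPM in distended, 417 and 246 CPM in control endothelium) and ERG (278 CPM in the graft, 289 and 199 CPM in distended, 345 and 227 CPM in control endothelium) were not called. LDB2 and SHANK3, also among the most abundant, had log2 fold changes of -1.36 and -1.64 and were not called. Of the 36 core genes 9 had a fold change above 0, against 54.2% of all tested genes. The graft was below all 4 other sums for 12 of them and above for 5.

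Of 22 tested metal and oxidative stress genes 3 rose and 0 fell, where 1.94% of all tested genes rose. The 3 were the zinc and iron importer SLC39A14, the metallothionein MT2A and the cystine transporter SLC7A11. The list as a whole did not shift, with 11 of the 22 fold changes above 0 and a median of 0.05. SLC39A14 had 260 CPM in the graft, 1.19 and 31.0 CPM in distended and 1.76 and 14.2 CPM in control endothelium (log2 fold change against control 5.43, SE 0.98, edgeR adjusted p = 3.19e-05). It was also called against distended endothelium, as was MT2A, which had 85.3 CPM in the graft, 0 and 4.43 CPM in distended and 5.28 and 4.73 CPM in control endothelium. In the cytoskeleton list MYO10, the myosin of filopodia, was the 1 call of 44 (217 CPM in the graft, 28.5 and 75.3 CPM in distended, 1.76 and 9.45 CPM in control endothelium, edgeR adjusted p = 3.19e-05). The lists of interferon response (IRF1 of 21 tested, median -1.32), arterial identity and Notch (LTBP4 of 14, median -0.48), endothelial-mesenchymal transition (S100A4 of 30, median 0.06) and hypoxia (DDIT4 of 29, median 0.35) had 1 gene each that fell. The heat shock list (median 0.22) had SLC7A11 alone of 40, and the VEGF and angiopoietin list (median -0.31) had ANGPT2 alone of 16.

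**Figure D3:**
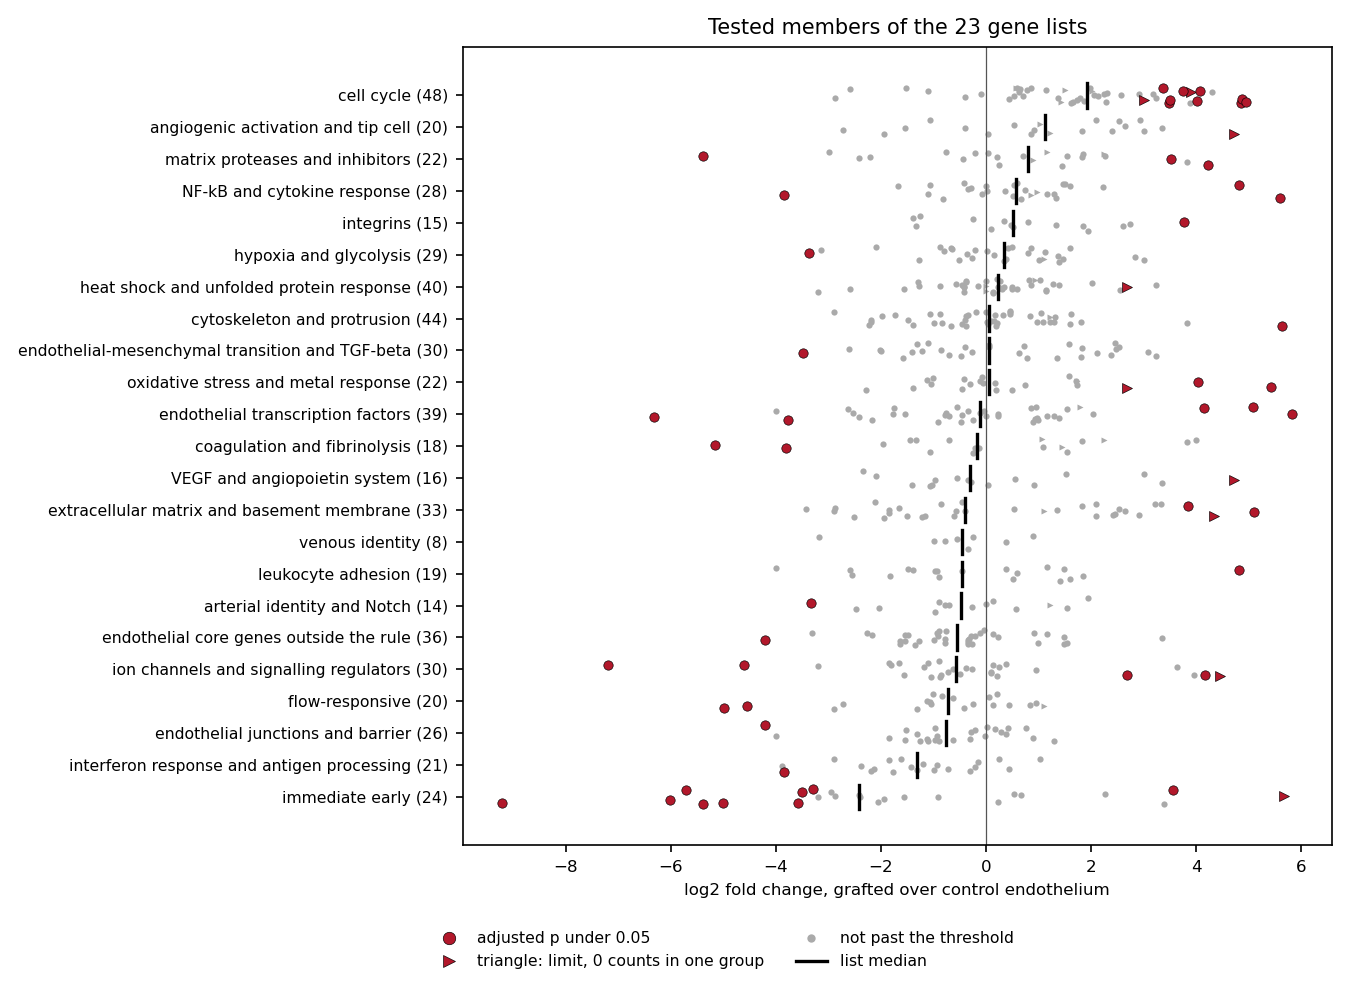
Log2 fold change of grafted over control endothelium (horizontal axis) for the tested members of each of 23 gene lists, with the number tested in brackets. Red symbols passed an edgeR adjusted p of 0.05, triangles are limits for genes with 0 counts in one group, and bars are list medians, which run between -2.41 for immediate early and 1.92 for cell cycle genes.

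Within the grafted library the endothelial nuclei were set beside 427 fibroblast and 312 myeloid nuclei chosen by mirrored rules and beside the 383 endothelial nuclei with 2 or more ACKR1 UMIs. Levels here are class CPM, with the dominant features counted in the total and no TMM scaling, so that an endothelial value is about 2 times the CPM above. They come with exact Poisson intervals that cover counting error only, and with 1 library there is no test. ADAMTS9 had 1221 class CPM in the endothelial nuclei, against 579 in the ACKR1 nuclei, 162 in fibroblast and 384 in myeloid nuclei. ITGA8 had 308, against 139, 12.6 and 72.9 in the same order. DIAPH3 had 413, against 147, 107 and 87.3, and NTN4, a netrin of basement membranes picked out after its values were seen, had 308, against 98.1, 21.0 and 34.9. These genes were higher in the endothelial nuclei than in all 3 other classes, as was DTL (164, against 82.0, 61.2 and 53.4). Summed, the 20 replication genes were close in both endothelial classes, at 1444 class CPM outside the dominant features in the endothelial and 1423 in the ACKR1 nuclei, against 808 in fibroblast and 624 in myeloid nuclei.

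ANGPT2 was also highest in the endothelial nuclei, but by less over the myeloid nuclei (206, against 55.4 in ACKR1, 66.2 in fibroblast and 164 in myeloid nuclei). Other genes that rose were higher still in the ACKR1 nuclei: PHLDA1 had 400 class CPM in the endothelial and 832 in the ACKR1 nuclei, CSF3 had 648 and 1430, SELE had 637 and 964, and FSIP1 had 1093 and 2412. The ACKR1 nuclei had a median of 6376 UMIs and a ribosomal protein share of 12.8%, against 0.675% in the endothelial nuclei. A last set stood at a like or higher level in other classes. BCAT1 had 311 class CPM in the endothelial nuclei, 281 in fibroblast and 214 in myeloid nuclei. RUNX1 had 200 in the endothelial nuclei, 4060 in fibroblast and 2044 in myeloid nuclei, VCAN had 1074, 1256 and 6557, and CXCL8 had 174, 299 and 1293. Of the 205 genes that rose against control, 119 (58%) were higher in the endothelial nuclei than in both fibroblast and myeloid nuclei, against 33.7% of all tested genes. Among the 107 with a symbol it was 55 (51.4%), with no such share over all genes with a symbol. The genes were called through high counts in these same nuclei, which favours an excess, so these shares are a description. Of the genes that fell against control, FOXC1 had 21.7 class CPM in the endothelial, 41.9 in the ACKR1, 3.35 in the fibroblast and 7.19 in the myeloid nuclei, and AHNAK had 176, 186, 190 and 407 in the same order.

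Markers of other cells were present in the endothelial nuclei at a low level. On the same scale, the 8 neutrophil and recruited myeloid markers summed to 216 in the endothelial and 4457 in the myeloid nuclei, and the 11 fibroblast markers summed to 205 in the endothelial and 4111 in the fibroblast nuclei. The rule itself holds these sums down, since its myeloid sum uses 3 of the 8 and its fibroblast sum 4 of the 11. In the summed libraries the fibroblast markers came to 101 CPM in grafted endothelium, of which PDGFRA held 51.7, against 202 and 4.43 CPM in distended and 167 and 184 CPM in control endothelium. The 8 smooth muscle markers came to 181 CPM in the graft, mostly ITGA8, against 69.0 and 13.3 CPM in distended and 45.8 and 18.9 CPM in control endothelium. At least 1 myeloid UMI of the rule was found in 224 of the 646 nuclei, at least 1 fibroblast UMI in 100 and at least 1 lymphatic UMI in 262, and 196 nuclei had 0 UMIs in all 4 other sums. Whether RUNX1, VCAN, CXCL8 and MYO10 counts in the endothelial nuclei come from transcripts of the other cells was not tested.

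**Figure D4:**
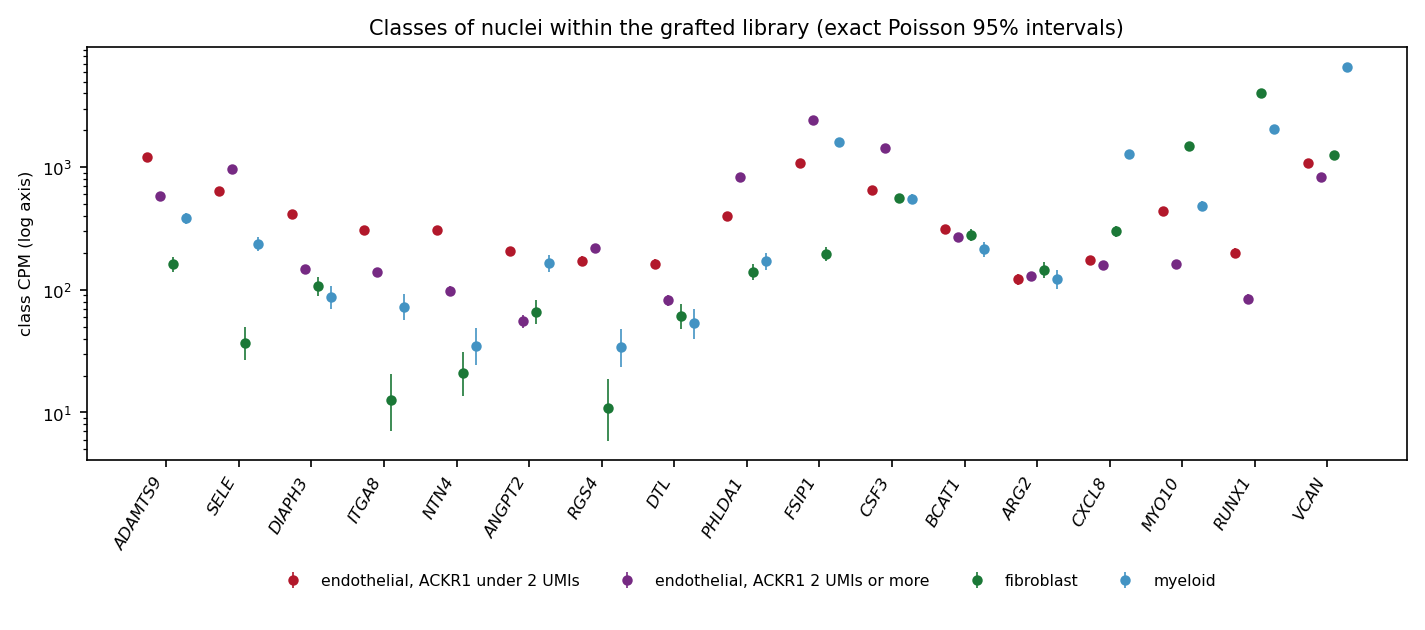
Class CPM (vertical log axis, with exact Poisson 95% intervals) for 17 genes in 4 classes of nuclei of the grafted library. ADAMTS9, DIAPH3, ITGA8 and NTN4 are highest in the endothelial nuclei, PHLDA1, FSIP1 and CSF3 in the ACKR1 nuclei, and RUNX1, MYO10, CXCL8 and VCAN in fibroblast or myeloid nuclei.

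The 646 nuclei were not uniform. Clustered on their own they fell into 6 clusters of 198, 159, 122, 88, 47 and 32 nuclei, which keep their numbers here, and since the genes below define the clusters they describe them and test nothing. Levels are class CPM of a cluster outside the 4 dominant features. Cluster 1 was led by RGS4 (476 class CPM, against 26.1 in the other clusters), PHLDA1 (875, against 175), CSF3 (1355, against 317) and SELE (1312, against 322). It also had the cytokine IL6 (354, against 120) and the largest share of nuclei with an ACKR1 UMI (44.9%). Cluster 2 was led by NTN4 (601, against 195) and the matrix protein EFEMP1 (398, against 130) and had the most of the cell cycle genes DIAPH3 (745, against 287), BRIP1 (210, against 81.9) and CCNE2, the S-phase cyclin (41.4, against 12.6). Several of the genes that rose against control were thus highest in different nuclei of the graft.

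Cluster 3 was led by the small heat shock protein CRYAB, with all of its 41 UMIs in 3.3% of the cluster's nuclei, by TINAGL1 (184 class CPM, against 14.4) and by HMGA2 (1130, against 217). Its ribosomal protein share was 1.28%, the highest of the 6. Cluster 4 was led by the collagen COL14A1 (210, against 20.2), SELENOP (243) and F8 (140, against 16.0) and had the lymphatic factor PROX1 at 91.2 class CPM. F8, which fell in the graft as a whole, was highest in this cluster of 88 nuclei. The 7 lymphatic markers summed to 483 class CPM in cluster 4, against 175 to 502 in the other 5 clusters, with cluster 5 the highest. Cluster 5, of 47 nuclei, was led by EGFR (645, against 19.1), GPC6 and RUNX1 (1497, against 107), and its 11 fibroblast markers summed to 957 class CPM, against 94.2 to 197 in the other 5 clusters, and its 8 myeloid markers to 820, against 146 to 411. Cluster 6, of 32 nuclei, was led by the transcription factor DACH1 (1616, against 28.9), IGFBP3 (479) and PDGFD (603), with ADAMTS9 at 4931 and the VEGF receptor KDR at 438 class CPM, against 23.4 to 74.9 for KDR in the others. Its 6 capillary-like endothelial markers summed to 493 class CPM, against 26.6 to 243 in the other 5 clusters. Its median depth was 1902.5 UMIs, the lowest of the 6. Endothelial genes of the rule were found in every cluster, at 1598 to 3958 class CPM summed.

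**Figure D5:**
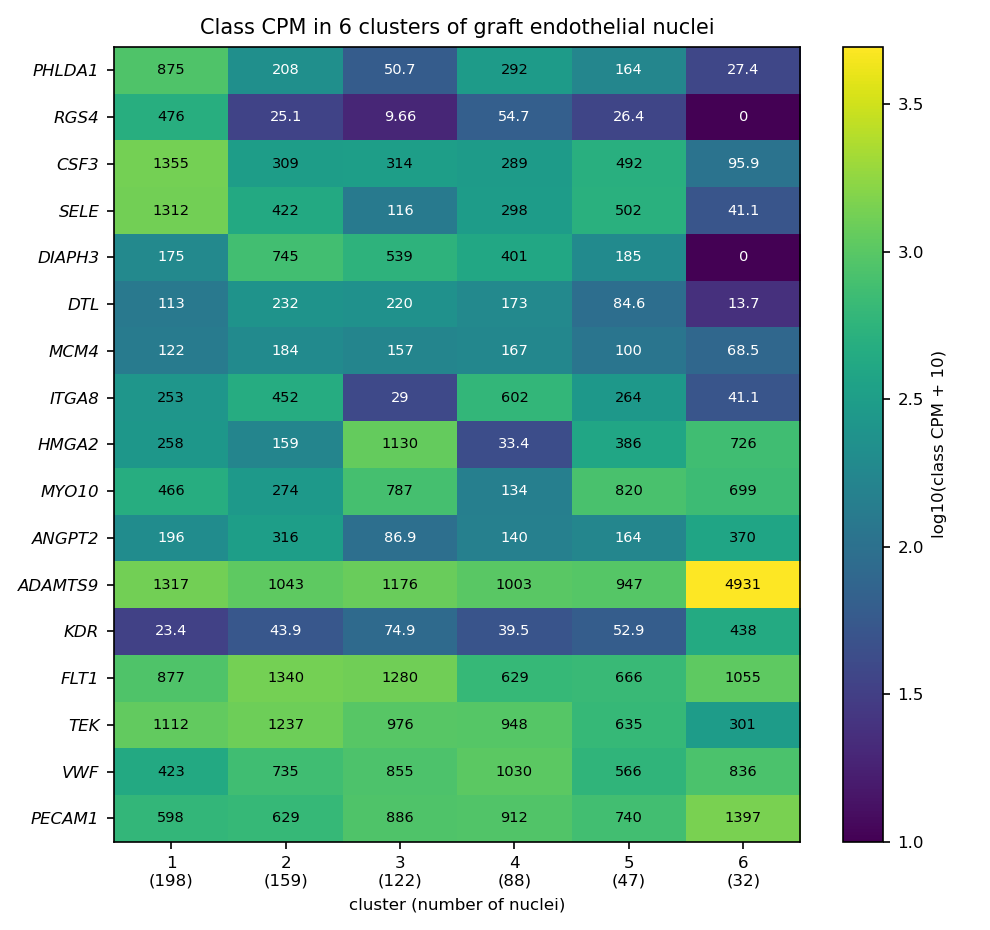
Class CPM (numbers in the cells, colour on a log10 scale after adding 10) of 17 genes in the 6 clusters of grafted endothelial nuclei, with the number of nuclei under each cluster. RGS4, PHLDA1, CSF3 and SELE are highest in cluster 1, DIAPH3 and DTL in cluster 2, HMGA2 in cluster 3, and KDR and ADAMTS9 in cluster 6.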

How the data were processed

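Nuclei were isolated from snap-frozen vein and sequenced with droplet single-nucleus chemistry, per the labels' protocols. The deposited values are unnormalised UMI counts, one matrix per library. Cell Ranger 7.0.0 produced them, per the file headers. Build and annotation are not given in the sources used here, and neither coordinates nor sequences are printed. Trailing numbers were stripped from feature names (35555 features, 35121 names), and 24 features that name no gene were left out of library sizes and tests. They held 0.223% of the UMIs of the grafted endothelial nuclei, 8.02% and 5.27% in distended and 8.40% and 15.1% in control dogs 1 and 2.

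Barcodes with at least 100 detected features were kept. The rule was applied to all 5 libraries. No doublet caller was run and no correction for transcripts from outside a nucleus was made. An alternative required the endothelial sum to be at least 3 times each other sum. Counts were summed over the endothelial nuclei of each library (2760628, 864762, 143148, 1172292 and 339901 UMIs in grafted dog 1, distended dogs 1 and 2, and control dogs 1 and 2) and tested with edgeR 4.0.16 in R 4.3.3 (filterByExpr, TMM, two-sided quasi-likelihood test), 3 groups sharing 1 fit, and Benjamini-Hochberg adjustment over 10570 genes at 0.05. The fit had 2 residual degrees of freedom and gave a gene's own spread no weight against that of all genes. DESeq2 1.42.0 was an alternative.

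Dog numbers in the labels name the same animals, so the numbers pair distended and control samples. Dog 1 minus dog 2 differences correlated between distended and control endothelium at r = -0.06 over 10570 genes, a description across genes. Named genes were the 15 highest and 15 lowest fold changes against control among called genes with a symbol and at least 30 UMIs whose grafted level lay outside all 4 other sums, plus called members of 23 gene lists. Some of these genes are not reported here, though counts and medians include them. Members, lists and markers were chosen with earlier results of these data known. Folds against 0 counts are limits, computed as if the group had held 3 counts. Intervals and floors cover counting error only. Clusters were made with scanpy 1.11.5 (2000 variable genes, 20 components, 15 neighbours, resolution 0.5).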

Additional observations from a re-analysis of the deposited data

How the results depend on the processing

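Against control, 378 genes were called. The count was 76 with DESeq2, 201 and 192 with at least 2 or at least 5 endothelial UMIs per nucleus, 210 without the 4 dominant features, 17 when the grafted sum, also without those features, was thinned to the mean depth of the other sums, and 0 with no limit on ACKR1 (918 genes at an unadjusted p under 0.05). Against distended endothelium, 151 genes were called, and the same settings gave 9, 61, 90, 67, 5 and 0. Leaving out 1 library at a time gave 0 to 806 calls against control and 0 to 452 against distended endothelium. The lowest count in both came without distended dog 1 (1388 and 384 genes at an unadjusted p under 0.05, DESeq2 not run there) and the highest without distended dog 2. The cause of these changes was not tested.

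With the replicate block by dog the counts were 273 and 91, against 378 and 151 without it. RLE size factors, no filter on low counts, an endothelial sum at least 3 times each other sum, and ACKR1 at 0 UMIs (added after the data were seen) kept both counts within 1.5 times. Over the 30 named genes and the alternatives that tested them, 0 of 445 values against control changed direction, and 302 kept their side of the threshold. The choice of genes with a grafted level outside all other sums largely fixed the direction in advance. Depth limits low genes: with 0 counts in a group, no fold under its floor of 3 counts can be seen, and the sum of distended dog 2 was the shallowest.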
